A study of Mus musculus with 9 samples.

Results

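The transcription factor p53 is kept low in unstressed cells by the ubiquitin ligase Mdm2, and after DNA damage, oncogene signalling or nutrient stress it accumulates and switches on a programme of target genes. These targets stop the cell cycle, start apoptosis through the mitochondrion, repair damage, restrain growth signalling and, through Mdm2 itself, end the response. Many of them are also switched on by other factors, among them those of the integrated stress response, so their transcripts are not a readout of p53 alone. A set of 10 such genes was followed here: Cdkn1a, Mdm2, Ccng1, Trp53inp1, Bbc3, Pmaip1, Phlda3, Sesn2, Zmat3 and Bax. They were picked by symbol from the 44806 entries of the gene count table, where each matched 1 entry, and all 10 passed the filter on low counts, with 88 to 6811 counts per library.

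The RNA was from tumours grown in mice from MB49, an established mouse line of bladder carcinoma, which the labels give as overexpressing HER2. Mice carrying these tumours had been given PBS, Lipo-BiTE or Lipo-TriTE, with 3 libraries for each, and every group carried the HER2-overexpressing line. Bispecific T cell engagers, often shortened to BiTE, are made from antibody fragments and bring T cells into contact with cells that carry a chosen surface antigen. The labels used here give no dose, time, strain or age, and these samples include no carrier-only arm. The design text names CD3-sorted T cells as the material, whereas labels and protocol speak of whole tumours that were frozen. The libraries held 13152783 to 20273548 counts.

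Markers of several cell types were present in every group, and all are counted in the same mixture. The summed CPM (counts scaled to a common TMM-adjusted library total) of 7 of 8 epithelial and tumour markers ran from 903 to 977 in PBS, 611 to 842 in Lipo-BiTE and 397 to 678 in Lipo-TriTE libraries. Krt8 and Krt18 made up most of this sum and fell in Lipo-TriTE against PBS (edgeR quasi-likelihood adjusted p = 0.0098 and 0.018). Cdh1, the cell adhesion protein E-cadherin, was instead higher in both treatments, with means of 4.00 CPM in PBS, 24.7 with Lipo-BiTE and 36.9 with Lipo-TriTE (edgeR adjusted p = 0.0029 and 0.00064). All 10 T cell markers were counted in each group, at a sum of 47.6 to 57.2 CPM in PBS, 237 to 446 in Lipo-BiTE and 1049 to 1800 in Lipo-TriTE. The sum of 7 of 8 macrophage markers was 89.4 to 149, 682 to 1624 and 496 to 690 CPM in that order, that of 6 neutrophil markers 131 to 294, 1117 to 6200 and 1279 to 4263, that of 6 B cell markers 6.24 to 10.2, 9.45 to 17.5 and 354 to 982, and that of 8 fibroblast markers 2079 to 3171, 1370 to 2312 and 936 to 1458. Col3a1 made up most of the fibroblast sum, with means of 2506, 1659 and 1054 CPM in the same order. In Lipo-TriTE against Lipo-BiTE 5 of the 8 fibroblast markers had a positive log2 fold change and 3 a negative one. Postn, of the 5, had means of 8.27, 1.83 and 8.85 CPM. A change of a p53 target in such tissue may be a change in the number of cells of a type or in the RNA per cell, which cannot be told apart. The part of these markers in the results that follow was not tested. On the second principal component PBS 1 lay at 58.4, far from PBS 2 and PBS 3 at 0.771 and 1.95. Whether each library stands for its own animal is not in the labels, and p-values therefore reflect only how much these samples varied, which may be technical.

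The p53 response element is a pair of 10-letter arms, each with the consensus known as the p53 decamer, and the members with a decamer in their promoter are shown here because the set is defined by this factor. Promoter windows of RefSeq on GRCm38.p6, running from 250 bases before to 50 bases after a transcription start, were at hand for 7 of the 10 genes (10 windows). Trp53inp1, Pmaip1 and Zmat3 had no window. The decamer reads the same by its consensus on both strands, so a single search covers both, and no matches overlapped. It was found in 4 of the 10 windows, against 8.36% of all 32851 windows of 300 bases. A full element, 2 decamers at most 13 bases apart, was found in 1 window of Cdkn1a, against 0.0731% of all windows. In the sequences, written 5′ to 3′ along the gene's strand, capitals mark decamers.
Cdkn1a, chr17:29090729-29090978, plus strand, the 250 bases before the more upstream of 2 starts: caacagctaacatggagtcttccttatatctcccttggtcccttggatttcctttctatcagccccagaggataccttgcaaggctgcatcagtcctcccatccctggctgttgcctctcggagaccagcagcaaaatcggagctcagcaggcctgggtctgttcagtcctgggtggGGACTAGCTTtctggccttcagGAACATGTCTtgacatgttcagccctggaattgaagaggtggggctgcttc
Mdm2, chr10:117710910-117710969, minus strand: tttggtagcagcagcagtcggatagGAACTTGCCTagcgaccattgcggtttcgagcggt
Ccng1, chr11:40755437-40755496, minus strand: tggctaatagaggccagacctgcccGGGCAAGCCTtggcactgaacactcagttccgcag
Bax, chr7:45467065-45467124, minus strand: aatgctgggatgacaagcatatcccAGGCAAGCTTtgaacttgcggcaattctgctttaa
Only exact matches to the consensus were sought. In Cdkn1a the first decamer began 73 bases before the start and 12 bases separated the pair. The 10 bases directly after the second decamer differ from the consensus only at their first letter and were not marked. The spacing of 12 bases therefore holds for exact matches only. The single decamers of Mdm2, Ccng1 and Bax began 186, 185 and 201 bases before their starts. A match is a description of these letters and not a measured binding site, and elements outside the windows were not searched.

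Levels of different genes are compared here as CPM per kilobase of gene model. In PBS tumours Bax stood highest (91.1 ± 11 CPM per kilobase), before Cdkn1a (77.5 ± 7.58), Ccng1 (48.6 ± 16.1), Mdm2 (19.1 ± 0.327), Phlda3 (18.9 ± 2.47), Sesn2, Bbc3, Zmat3, Trp53inp1 and, lowest, Pmaip1 (2.98 ± 0.506; SD, n = 3 each). Neighbours in this order overlapped in their libraries except Cdkn1a with Ccng1, Ccng1 with Mdm2, Phlda3 with Sesn2, and Trp53inp1 with Pmaip1. In Lipo-BiTE tumours Cdkn1a had the highest mean at 184 ± 62.4 CPM per kilobase and Pmaip1 stood at 36.4 ± 19.8, and in Lipo-TriTE tumours Bax did at 105 ± 16.6 CPM per kilobase (SD, n = 3 each). The libraries of Cdkn1a and Bax overlapped in both, at 118 to 242 and 102 to 125 in Lipo-BiTE and 59.9 to 106 and 87.4 to 120 in Lipo-TriTE. The mean CPM was highest in Lipo-BiTE for 6 members, in PBS for 3 and in Lipo-TriTE for 1. The single library Lipo-BiTE 1 had the highest level of all 9 for 4 of the 10 members.

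**Figure D1:**
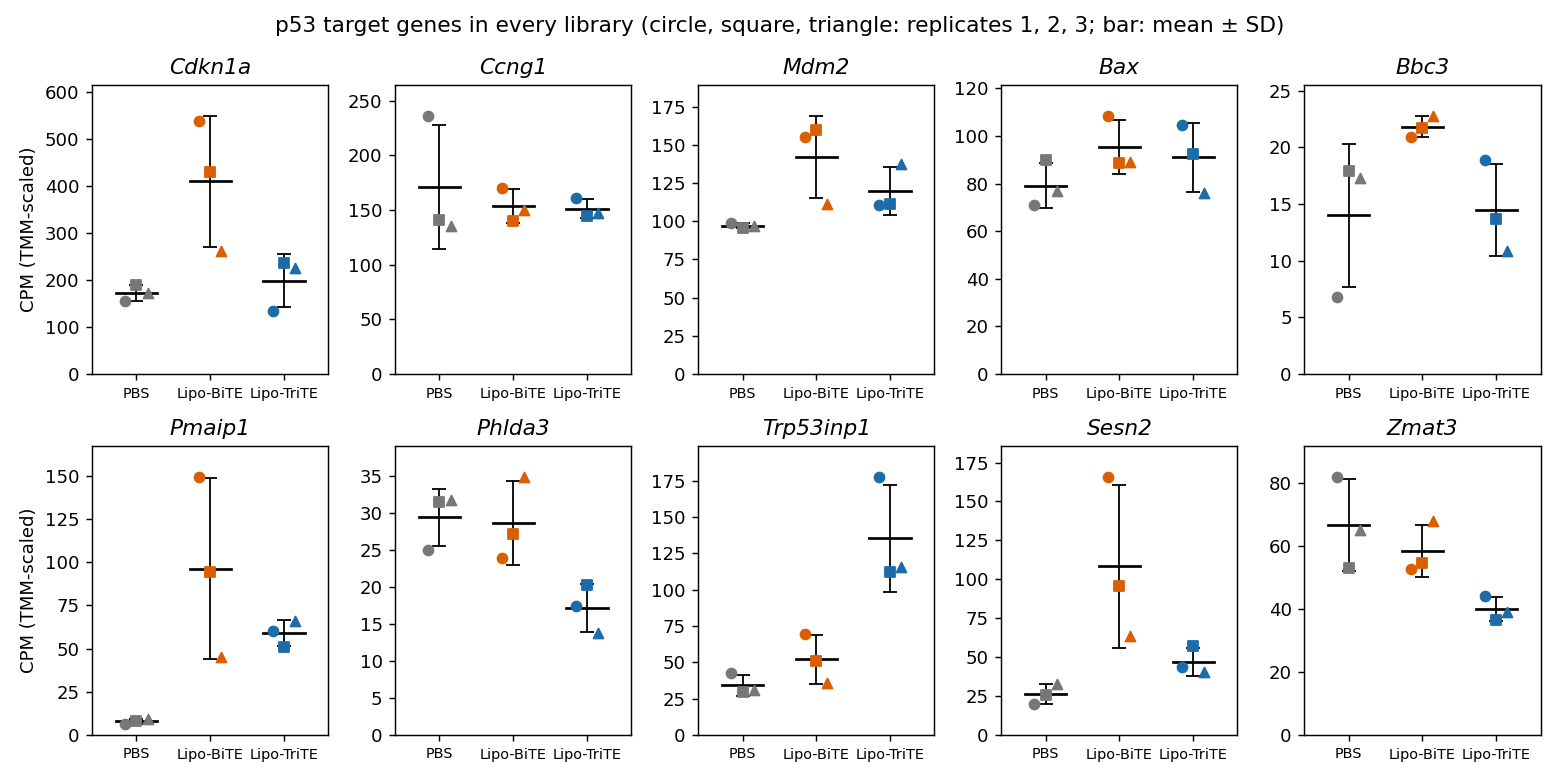
CPM on TMM-scaled totals (vertical axes, each from 0) of the 10 p53 target genes in each of the 9 libraries, by group; symbols are replicates, bars are means ± SD. Pmaip1 lies at 6.53 to 9.21 CPM in PBS and at 45.1 CPM or above in every treated library, while Bax and Ccng1 overlap between all groups.

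Pmaip1 rose under both treatments, Cdkn1a, Sesn2 and Mdm2 rose in Lipo-BiTE, Trp53inp1 rose in Lipo-TriTE, and Phlda3 and Zmat3 fell in Lipo-TriTE, each against PBS by the edgeR quasi-likelihood test at an adjusted p under 0.05. Of the 10 genes, 4 were called for each treatment against PBS and 4 between the treatments. Of all 16596 genes tested 17.0% were called for Lipo-BiTE against PBS, 33.6% for Lipo-TriTE against PBS and 10.1% between the treatments. All 4 members called for Lipo-BiTE against PBS were higher, where 13.8% of all genes were, and 0 were lower by edgeR, by DESeq2 or at an unadjusted p under 0.05, where 3.22% of all genes were called lower. In Lipo-TriTE against PBS 2 members were higher and 2 lower, where 18.9% and 14.8% of all genes were, so these shares lie near those of all genes; 1 member was lower without PBS 2, PBS 3 or Lipo-TriTE 2. Between the treatments 1 was higher and 3 were lower in Lipo-TriTE, where 4.88% and 5.21% of all genes were. The count of 3 became 0 without Lipo-BiTE 2 or any one Lipo-TriTE library and when only these 2 groups were fitted, and 1 without PBS 2, PBS 3 or Lipo-BiTE 1; without Lipo-BiTE 2 the count of higher members was also 0. Libraries did not overlap for 5, 6 and 6 members in the 3 comparisons, against 42.1%, 49.5% and 30.5% of all genes. The median log2 fold change of the members was 0.58, 0.20 and −0.57, against −0.02, 0.00 and −0.01 over all genes tested. The comparisons share libraries, so their counts are not independent of each other.

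**Figure D2:**
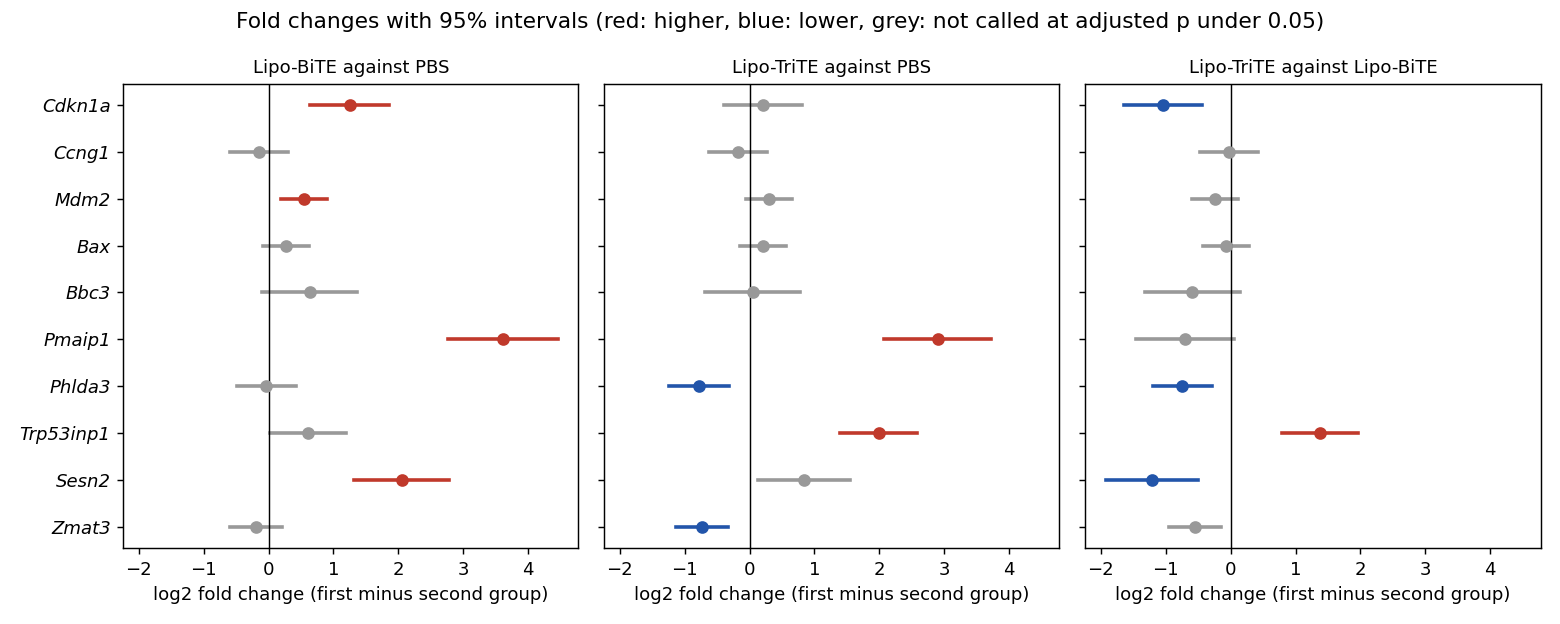
Log2 fold changes (points) and 95% intervals (lines) of the 10 genes in the 3 comparisons, the first-named group minus the second; red is higher, blue lower and grey not called at an adjusted p under 0.05. Pmaip1 is to the right of 0 in both comparisons with PBS, whereas Phlda3 and Zmat3 are to the left of 0 in Lipo-TriTE against PBS and near 0 in Lipo-BiTE against PBS.

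The arrest genes of the set are Cdkn1a, which encodes the cyclin-dependent kinase inhibitor p21, and Ccng1, which encodes the atypical cyclin G1. Positions are those of the C57BL/6NJ gene models, all protein-coding: Cdkn1a lies on chromosome 17, 29733095 to 29744217, plus strand, and Ccng1 on chromosome 11, 40599834 to 40606593, minus strand. Cdkn1a counts corresponded to 156, 189 and 172 CPM in PBS 1, 2 and 3, to 537, 430 and 262 CPM in Lipo-BiTE and to 133, 237 and 226 CPM in Lipo-TriTE. Every Lipo-BiTE library lay above every other library, and the Lipo-TriTE libraries fell on both sides of the PBS range. Cdkn1a was 2.38-fold higher in Lipo-BiTE than in PBS (edgeR quasi-likelihood adjusted p = 0.011, log2 fold change 1.25 with SE 0.27), a call kept in 16 of 16 alternative settings (adjusted p up to 0.0499). It was lower in Lipo-TriTE than in Lipo-BiTE (log2 −1.04, SE 0.27, edgeR adjusted p = 0.037). That call was lost in 8 of the 16 settings, including without PBS 3, Lipo-BiTE 1, Lipo-BiTE 2 or any Lipo-TriTE library (adjusted p up to 0.11). Lipo-TriTE against PBS did not pass, at log2 0.20 with a 95% interval of −0.39 to 0.80 (edgeR adjusted p = 0.59).

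Ccng1 was at 236, 141 and 135 CPM in PBS, 170, 140 and 150 in Lipo-BiTE and 161, 145 and 148 in Lipo-TriTE. PBS 1 was the highest of all 9 libraries, and the other PBS libraries lay within or below the treated range. No comparison of Ccng1 passed: the log2 fold changes were −0.15 (95% interval −0.60 to 0.29) for Lipo-BiTE and −0.17 (−0.62 to 0.27) for Lipo-TriTE against PBS, with edgeR adjusted p = 0.64 and 0.54. Without PBS 1 both turned positive, at 0.15 and 0.11.

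Mdm2, the ligase that ubiquitinates p53 and so closes the feedback loop, lies on chromosome 10, 124786893 to 124808453, minus strand. It was at 98.6, 95.3 and 97.1 CPM in PBS, a narrow spread. It stood at 155, 160 and 111 CPM in Lipo-BiTE and at 111, 111 and 138 CPM in Lipo-TriTE. All 6 treated libraries thus lay above the PBS range. Mdm2 was 1.47-fold higher in Lipo-BiTE than in PBS (log2 0.55, SE 0.16, edgeR adjusted p = 0.039). The call was kept in 8 of 16 settings. It was lost in the other 8, among them without any single PBS library, Lipo-BiTE 1, Lipo-BiTE 2 or Lipo-TriTE 2 and with scaling by total counts (adjusted p up to 0.16). Lipo-TriTE against PBS did not pass (log2 0.30, 95% interval −0.05 to 0.66, edgeR adjusted p = 0.17).

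Among the apoptosis genes, Pmaip1 encodes Noxa, a BH3-only protein that neutralises Mcl1, Bbc3 encodes Puma, a BH3-only protein that binds all anti-apoptotic relatives of Bcl2, and Bax encodes the effector that permeabilises the outer mitochondrial membrane. Pmaip1 lies on chromosome 18, 68442123 to 68449069, plus strand, Bbc3 on chromosome 7, 14753010 to 14761597, plus strand, and Bax on chromosome 7, 47998698 to 48003901, minus strand. Pmaip1 was at 6.53, 7.91 and 9.21 CPM in PBS, 150, 94.4 and 45.1 in Lipo-BiTE and 59.9, 51.0 and 65.8 in Lipo-TriTE, with no overlap between PBS and either treatment. It was 12.2-fold higher in Lipo-BiTE (log2 3.61, SE 0.38, edgeR adjusted p = 0.00076) and 7.45-fold higher in Lipo-TriTE than in PBS (log2 2.90, SE 0.37, edgeR adjusted p = 0.00037). Both calls were kept in all 16 settings. Between the treatments Pmaip1 did not pass (log2 −0.71, 95% interval −1.46 to 0.05, edgeR adjusted p = 0.22), but it did without Lipo-BiTE 3 (log2 −1.01, adjusted p = 0.022) and without a filter on low counts (log2 −0.69, adjusted p = 0.0075).

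Bbc3 was at 6.75, 17.9 and 17.3 CPM in PBS, 20.9, 21.7 and 22.8 in Lipo-BiTE and 18.8, 13.6 and 10.9 in Lipo-TriTE. Lipo-BiTE libraries lay above all others, but PBS 1 was far below the other PBS libraries. Bbc3 passed in no comparison, with log2 0.64 (95% interval −0.10 to 1.37, edgeR adjusted p = 0.21) for Lipo-BiTE and 0.05 (−0.69 to 0.78, adjusted p = 0.93) for Lipo-TriTE against PBS. Bax was at 71.0, 89.7 and 76.9 CPM in PBS, 108, 88.7 and 88.9 in Lipo-BiTE and 105, 92.6 and 75.9 in Lipo-TriTE, so that all groups overlapped. Its log2 fold changes against PBS were 0.27 (95% interval −0.09 to 0.62, edgeR adjusted p = 0.27) in Lipo-BiTE and 0.20 (−0.15 to 0.55, adjusted p = 0.36) in Lipo-TriTE. In Lipo-BiTE against PBS the upper end of the Bax interval, 0.62, lay below the lower end of the Pmaip1 interval, 2.76.

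Trp53inp1 encodes a nuclear and autophagy protein that promotes p53-dependent cell death, from chromosome 4, 8217830 to 8235843, plus strand. It was at 42.3, 29.2 and 31.0 CPM in PBS, 69.4, 50.8 and 35.8 in Lipo-BiTE and 178, 112 and 116 in Lipo-TriTE. Lipo-TriTE libraries lay above all others, while Lipo-BiTE and PBS overlapped. Trp53inp1 was 3.96-fold higher in Lipo-TriTE than in PBS (log2 1.99, SE 0.27, edgeR adjusted p = 0.00044, kept in 16 of 16 settings). It was also 2.6-fold higher in Lipo-TriTE than in Lipo-BiTE (log2 1.38, SE 0.27, edgeR adjusted p = 0.012), a call lost in 1 setting, without Lipo-BiTE 2 (adjusted p = 0.059). Lipo-BiTE against PBS did not pass (log2 0.61, 95% interval 0.03 to 1.19, edgeR adjusted p = 0.14), but it did without Lipo-BiTE 3 (adjusted p = 0.042) and without a filter on low counts. Lipo-TriTE 1, the library with the most Trp53inp1, also had the largest sums of T cell markers (1800 CPM) and B cell markers (982 CPM).

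Sesn2 encodes sestrin 2, a leucine sensor that restrains mTORC1 and is induced by amino acid shortage as well as by p53, and lies on chromosome 4, 139518077 to 139540333, minus strand. It was at 20.1, 25.4 and 32.9 CPM in PBS, 166, 95.8 and 63.6 in Lipo-BiTE and 43.3, 57 and 40.3 in Lipo-TriTE. The 3 groups did not overlap, with Lipo-TriTE between the others. Sesn2 was 4.14-fold higher in Lipo-BiTE than in PBS (log2 2.05, SE 0.33, edgeR adjusted p = 0.0021, kept in 16 of 16 settings). The difference between Lipo-TriTE and PBS did not pass (log2 0.84, 95% interval 0.13 to 1.55, edgeR adjusted p = 0.067), but passed in 6 of 16 settings, DESeq2, a fit without Lipo-BiTE 1 and one without Lipo-BiTE 3 among them. Sesn2 was lower in Lipo-TriTE than in Lipo-BiTE (log2 −1.21, SE 0.32, edgeR adjusted p = 0.04). This call was kept in 8 of 16 settings and lost without PBS 2, Lipo-BiTE 1, Lipo-BiTE 2 or any Lipo-TriTE library (adjusted p up to 0.12). A second gene model, Gm12981, overlaps Sesn2, and the strand setting of the counting is not given. Gm12981 held 89 counts over all libraries against 7919 for Sesn2.

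Phlda3 encodes a pleckstrin homology domain protein that competes with Akt for membrane lipids, and lies on chromosome 1, 144578363 to 144581380, plus strand. It was at 25, 31.6 and 31.8 CPM in PBS, 24.0, 27.2 and 35.0 in Lipo-BiTE and 17.5, 20.2 and 13.7 in Lipo-TriTE, so that only Lipo-TriTE stood apart. Phlda3 fell by 0.78 on the log2 scale in Lipo-TriTE against PBS (SE 0.21, edgeR adjusted p = 0.014), a call lost without PBS 2 or without PBS 3 (adjusted p = 0.062 each). Against Lipo-BiTE it fell by 0.74 (SE 0.21, edgeR adjusted p = 0.046), a call kept in 4 of 16 settings. It was lost without PBS 2, PBS 3, Lipo-BiTE 2, Lipo-BiTE 3 or any Lipo-TriTE library (adjusted p up to 0.16).

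Zmat3, an RNA-binding zinc finger protein of the p53 pathway, is encoded on chromosome 3, 31435049 to 31467593, minus strand. It was at 82.2, 53 and 65.2 CPM in PBS, 52.7, 54.7 and 68.1 in Lipo-BiTE and 44.3, 36.7 and 39.2 in Lipo-TriTE. Here too the Lipo-TriTE libraries lay below all others. Zmat3 fell by 0.74 on the log2 scale in Lipo-TriTE against PBS (SE 0.18, edgeR adjusted p = 0.01), a call lost only without Lipo-TriTE 2 (adjusted p = 0.053). Lipo-TriTE against Lipo-BiTE did not pass (log2 −0.55, 95% interval −0.95 to −0.14, edgeR adjusted p = 0.084), but passed without PBS 1 (adjusted p = 0.046). Neither Phlda3 nor Zmat3 passed in Lipo-BiTE against PBS, at log2 −0.04 (95% interval −0.49 to 0.41) and −0.19 (−0.59 to 0.21).

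The gene of p53 itself, Trp53, was at 299, 289 and 272 CPM in PBS, 202, 246 and 266 in Lipo-BiTE and 185, 211 and 189 in Lipo-TriTE, where every treated library lay below every PBS library. It fell by 0.56 on the log2 scale in Lipo-TriTE against PBS (SE 0.14, edgeR adjusted p = 0.011; 0.055 without PBS 2) and did not pass in Lipo-BiTE against PBS (log2 −0.27, adjusted p = 0.21). Mdm4, the p53 inhibitor related to Mdm2, rose 1.61-fold in Lipo-TriTE against PBS (edgeR adjusted p = 0.023; up to 0.079 in the 4 of 16 settings that lost the call, among them without PBS 1, PBS 2 or Lipo-TriTE 1). Ppm1d, a phosphatase that switches the response off, passed in no comparison and stood at 40.4 ± 3.19 CPM in PBS libraries, 33.9 ± 1.37 with Lipo-BiTE and 38.1 ± 2.53 with Lipo-TriTE (SD, n = 3 each).

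Of the 18 listed regulators 16 were tested. In Lipo-BiTE against PBS 1 was higher and 1 lower, where 13.8% and 3.22% of all genes tested were. In Lipo-TriTE against PBS 2 were higher and 3 lower, near the 18.9% and 14.8% of all genes. Between the treatments 0 were higher in Lipo-TriTE (1 at an unadjusted p under 0.05 and 1 by DESeq2) and 1 was lower, where 4.88% and 5.21% of all genes were. With single libraries left out, the counts against PBS ran from 0 to 2 higher and 0 to 1 lower in Lipo-BiTE and from 1 (without Lipo-TriTE 1) to 4 (without Lipo-TriTE 3) higher and 2 to 4 lower in Lipo-TriTE. The 1 lower between the treatments became 3 without PBS 1 and 0 without Lipo-BiTE 2, Lipo-TriTE 1 or Lipo-TriTE 3. The kinase gene Chek1, which halts cells with stalled replication, was 1.84-fold lower in Lipo-BiTE (edgeR adjusted p = 0.023) and 1.77-fold lower in Lipo-TriTE than in PBS (adjusted p = 0.017). It lost the first call without PBS 1, PBS 3, Lipo-BiTE 1 or Lipo-BiTE 2 (adjusted p up to 0.091) and the second without Lipo-TriTE 1 or Lipo-TriTE 2 (up to 0.069). Trp53bp1, a repair protein that binds p53, fell by 0.57 on the log2 scale in Lipo-TriTE against PBS (edgeR adjusted p = 0.011; 0.057 without PBS 3). Ppp1r13l, which encodes the p53 inhibitor iASPP, fell by 1.77 on the log2 scale in Lipo-TriTE against Lipo-BiTE (edgeR adjusted p = 0.024; up to 0.079 without Lipo-BiTE 2, Lipo-TriTE 1 or Lipo-TriTE 3).

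Trp73, the p53 relative p73, had no counts in PBS against 33 in Lipo-BiTE and 42 in Lipo-TriTE libraries together. Set against an assumed floor of 3 counts over the PBS group, the ratios were 13.1 and 12.8. The edgeR test did not use this floor. Its own log2 fold changes were 6.71 and 6.60 (adjusted p = 0.022 and 0.013), and with no PBS counts their size is not well determined. Exact binomial 95% intervals of the ratio, on pooled counts, began at 10.1 and 9.94. These intervals leave out the spread between libraries, which for Trp73 ran from 0.130 to 1.17 CPM in Lipo-TriTE, and are therefore too narrow. The edgeR call of Trp73 in Lipo-BiTE against PBS was lost without any one PBS library, Lipo-BiTE 1 or Lipo-BiTE 2 (adjusted p up to 0.068). Cdkn2a, whose products include Arf, an inhibitor of Mdm2, did not reach the filter. It had 0 counts in each PBS library, 4, 1 and 6 in Lipo-BiTE and 18, 18 and 4 in Lipo-TriTE, which is 4.36-fold and 12.2-fold above the same floor, with no test. The same intervals on pooled counts began at 2.99 and 9.44 for Cdkn2a. They again leave out the spread between libraries and do not stand in for a test.

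Other p53 targets, a list of 29 genes that were all tested, moved in both directions. Against PBS 9 were higher and 1 lower with Lipo-BiTE, and 8 were higher and 2 lower with Lipo-TriTE. Of all genes tested 13.8% were higher and 3.22% lower with Lipo-BiTE, and 18.9% and 14.8% with Lipo-TriTE. Between the treatments 3 were higher and 2 lower in Lipo-TriTE (1 lower without Lipo-BiTE 2 or Lipo-TriTE 2), against 4.88% and 5.21% of all genes. Their median log2 fold changes were 0.27, 0.31 and 0.19. The count of 9 was 5 without Lipo-BiTE 1, and the 1 lower gene was not called without PBS 1 or Lipo-BiTE 2. The strongest calls in Lipo-BiTE against PBS were Cyfip2, an actin regulator of the WAVE complex (8.39-fold, edgeR adjusted p = 0.00091), the death receptor Fas (8.09-fold, adjusted p = 0.001), the antiproliferative Btg2 (4.05-fold, adjusted p = 0.0018) and Ephx1, the microsomal epoxide hydrolase. Ephx1 stood at 0.119 ± 0.157 CPM in PBS libraries, 2.06 ± 0.0367 with Lipo-BiTE and 25.3 ± 12.5 with Lipo-TriTE (SD, n = 3 each). Its fold was 17.9 in Lipo-BiTE against PBS (55 without PBS 1, 11.7 without PBS 2; edgeR adjusted p = 0.0021) and 220 in Lipo-TriTE against PBS (667 and 146 without these; adjusted p = 3.2e-05).

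In Lipo-TriTE against PBS Cyfip2 (16-fold, edgeR adjusted p = 0.00012) and Fas (9.64-fold, adjusted p = 0.00032) rose as well. Tnfrsf10b, the TRAIL death receptor, was at 30.8, 37.5 and 39.3 CPM in PBS, 27.1, 29.6 and 31.1 in Lipo-BiTE and 13.2, 15.1 and 16.9 in Lipo-TriTE. It was 2.38-fold lower in Lipo-TriTE than in PBS (edgeR adjusted p = 0.00039) and 1.94-fold lower than in Lipo-BiTE (adjusted p = 0.0085). Plk2, a polo-like kinase of the stress response, was 2.00-fold lower in Lipo-TriTE than in Lipo-BiTE (edgeR adjusted p = 0.014; up to 0.061 without Lipo-BiTE 2 or Lipo-TriTE 2). Ephx1 was 12.3-fold higher in Lipo-TriTE than in Lipo-BiTE (adjusted p = 0.0021).

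**Figure D3:**
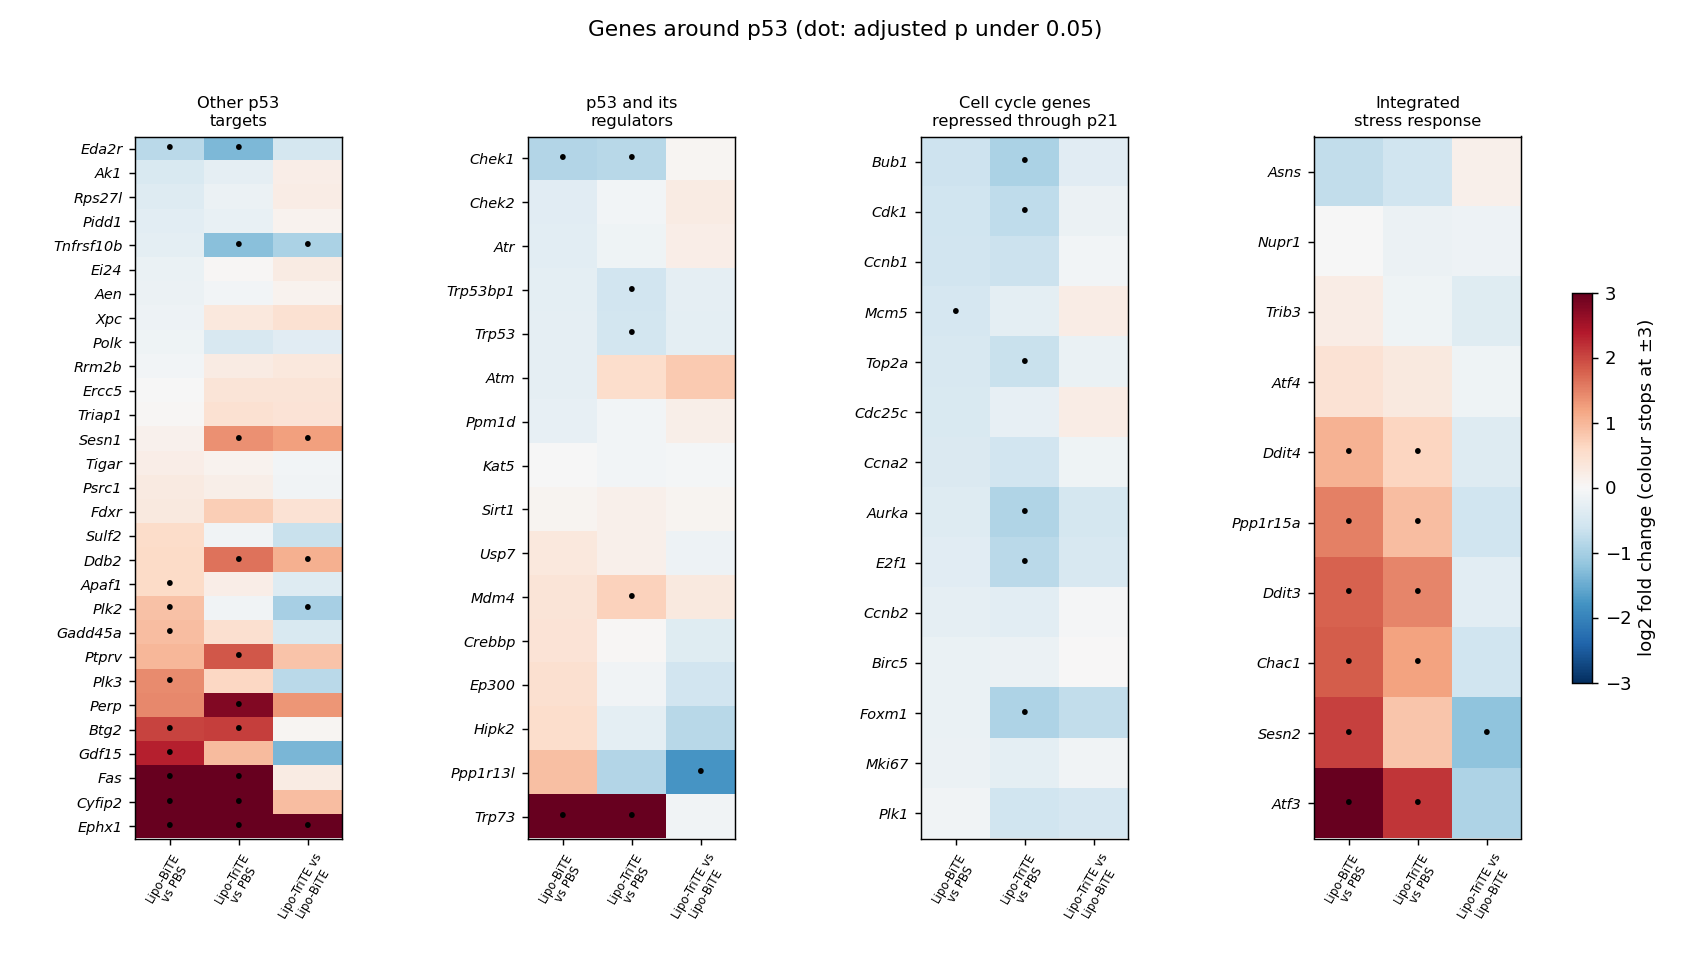
Log2 fold changes (colour, which stops at ±3) of the tested genes of 4 lists in the 3 comparisons, rows sorted by Lipo-BiTE against PBS; a dot marks an adjusted p under 0.05. Fas, Cyfip2 and Ephx1 are at the red end in both comparisons with PBS, while Eda2r, another receptor of the TNF family, is lower in both.

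Cell cycle genes that are known to be repressed through p21 were read beside Cdkn1a. Of 14 tested, 0 were higher in any comparison (edgeR; 0 also at an unadjusted p under 0.05 and 0 by DESeq2). Lower were 1 in Lipo-BiTE against PBS, 6 in Lipo-TriTE against PBS and 0 in Lipo-TriTE against Lipo-BiTE (3 at an unadjusted p and 1 by DESeq2), where 3.22%, 14.8% and 5.21% of all genes tested were. All 14 had a negative log2 fold change in both comparisons with PBS, which share the PBS libraries, with medians of −0.41 for Lipo-BiTE and −0.62 for Lipo-TriTE. Of all 16596 genes tested 8569 and 8258 had a negative one. The count called lower in Lipo-BiTE against PBS was 8 without Lipo-BiTE 3 and 0 without any one PBS library, Lipo-BiTE 1, Lipo-BiTE 2 or Lipo-TriTE 2. That in Lipo-TriTE against PBS was 2 without PBS 2, 3 without Lipo-TriTE 1 or 2, and up to 9 without Lipo-BiTE 1 or 3. The gene called in Lipo-BiTE was Mcm5, a subunit of the replicative helicase (log2 −0.50, edgeR adjusted p = 0.039; lost in 8 of 16 settings, without any one PBS library, Lipo-BiTE 1, Lipo-BiTE 2 or Lipo-TriTE 2 among them, up to 0.17). In Lipo-TriTE against PBS the mitotic kinase Aurka (log2 −0.90, edgeR adjusted p = 0.0047), the transcription factors Foxm1 (−0.92, adjusted p = 0.0075) and E2f1 (−0.80, adjusted p = 0.011) and Cdk1 (−0.76, adjusted p = 0.018) were lower. E2f1 lost its call without PBS 2 or Lipo-TriTE 2 (adjusted p up to 0.058), and Cdk1 without PBS 2, PBS 3, Lipo-TriTE 1 or Lipo-TriTE 2 (up to 0.076).

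The integrated stress response, in which the factor Atf4 and its partner Ddit3 (CHOP) switch on genes of amino acid supply and cell death, shares Sesn2 with the set. Of its 10 genes 6 were higher in Lipo-BiTE than in PBS, Sesn2 included, and 5 in Lipo-TriTE than in PBS, where 13.8% and 18.9% of all genes tested were. In both comparisons 0 were lower by edgeR (1 each at an unadjusted p under 0.05, and 1 and 0 by DESeq2). The log2 fold change was positive for 8 and 7 of the 10 genes and negative for 2 and 3. Asns went down, with means of 98.6 CPM in PBS, 58.8 with Lipo-BiTE and 65.5 with Lipo-TriTE. Every treated library lay below every PBS library for Asns. The count of 5 was 2 without PBS 1 and 3 without Lipo-TriTE 2. Atf3, a stress-induced transcription factor, was at 21.7, 27.6 and 22.9 CPM in PBS, 312, 197 and 98.6 in Lipo-BiTE and 81.4, 106 and 133 in Lipo-TriTE. It rose 8.40-fold in Lipo-BiTE (edgeR adjusted p = 0.00077) and 4.44-fold in Lipo-TriTE against PBS (adjusted p = 0.0015).

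Ppp1r15a, the phosphatase subunit that ends this response, rose 2.86-fold in Lipo-BiTE (edgeR adjusted p = 0.0023) and 1.90-fold in Lipo-TriTE against PBS (adjusted p = 0.016; up to 0.061 without PBS 1 or Lipo-TriTE 3). Ddit4, an mTORC1 inhibitor, rose 2.05-fold in Lipo-BiTE against PBS (edgeR adjusted p = 0.0046). In Lipo-TriTE against PBS Ddit3 rose 2.74-fold (edgeR adjusted p = 0.0072) and Chac1, a glutathione-degrading enzyme, 2.32-fold (adjusted p = 0.025; up to 0.10 without PBS 1, PBS 2 or Lipo-TriTE 2). In Lipo-TriTE against Lipo-BiTE 0 genes of the list were higher (0 at an unadjusted p and 0 by DESeq2), and Sesn2 was the 1 called lower, where 5.21% of all genes were. This count was 3 without Lipo-BiTE 3 and 0 without PBS 2, Lipo-BiTE 1, Lipo-BiTE 2 or any one Lipo-TriTE library.

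Within Lipo-BiTE, Cdkn1a, Sesn2 and Pmaip1 were highest in library 1 and lowest in library 3, as were the neutrophil and T cell marker sums; Mdm2 and the macrophage sum did not follow this order. Lipo-BiTE 1 had 537 CPM of Cdkn1a, 166 of Sesn2 and 150 of Pmaip1, and marker sums of 6200 CPM for neutrophils, 1624 for macrophages and 446 for T cells. Lipo-BiTE 3 had 262, 63.6 and 45.1 CPM of these genes and marker sums of 1117, 766 and 237 CPM. Its epithelial and tumour sum was 842 CPM, against 611 in Lipo-BiTE 1. In Lipo-TriTE the T cell and neutrophil sums did not follow the order of Cdkn1a. Cdkn1a was lowest, at 133 CPM, in library 1, which had the highest T cell sum (1800 CPM). The macrophage sums did follow it, at 496, 690 and 629 CPM in libraries 1, 2 and 3. So did the epithelial and tumour sums, at 397, 678 and 621 CPM. Sesn2 and Pmaip1 followed other orders there. Neutrophil sums of 1279 to 4263 CPM in Lipo-TriTE stood beside 133 to 237 CPM of Cdkn1a, a range that overlaps PBS. These orders rest on 3 libraries per group, and the part of the marked cell types in them was not tested. Without Lipo-BiTE 1, and likewise without Lipo-BiTE 3, Cdkn1a, Sesn2 and Pmaip1 kept their calls in Lipo-BiTE against PBS.

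**Figure D4:**
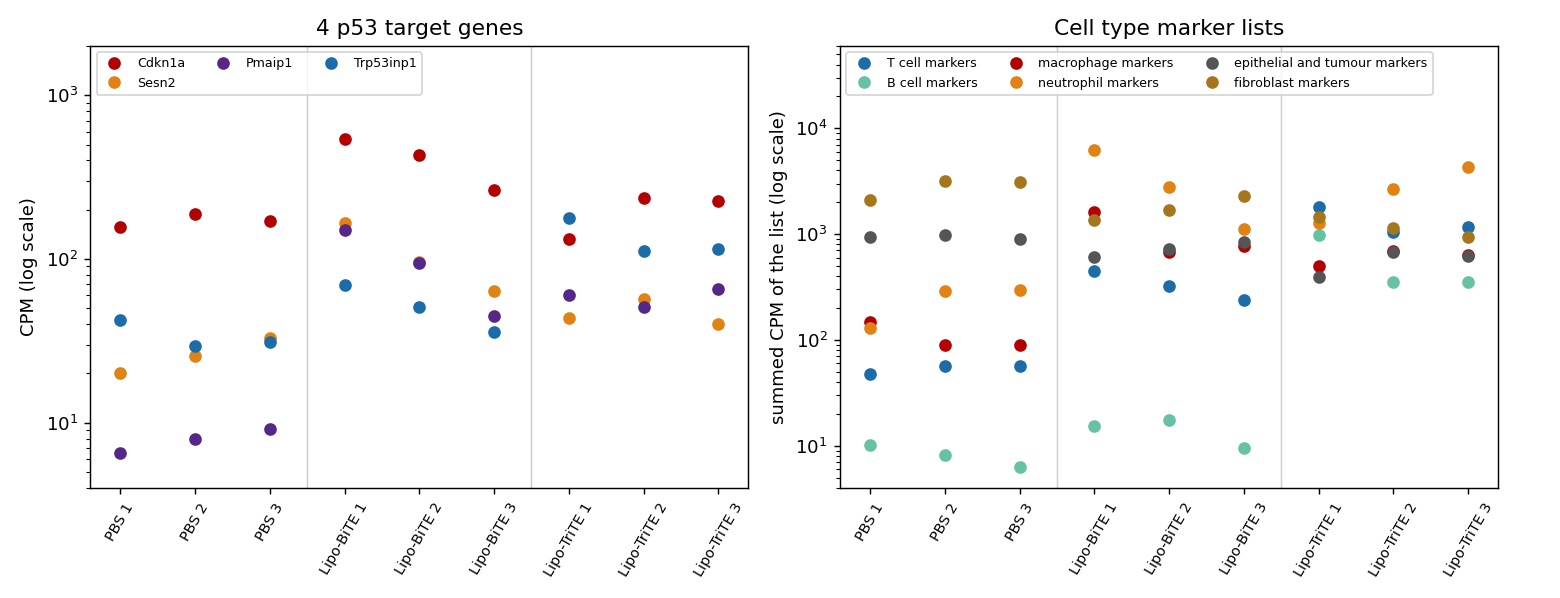
CPM of Cdkn1a, Sesn2, Pmaip1 and Trp53inp1 (left) and summed CPM of 6 cell type marker lists (right) in each of the 9 libraries, both on log axes; grey lines separate the groups. Cdkn1a, Sesn2 and Pmaip1 are highest in Lipo-BiTE 1, which also has the largest neutrophil and macrophage sums, and Trp53inp1 is highest in Lipo-TriTE 1, which has the largest T and B cell sums.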

How the data were processed

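RNA-seq of 9 tumour libraries was analysed from 1 deposited table of raw read counts per gene, whole numbers per the file headers and values; the sources used here do not give the aligner, counter or strand setting. Identifiers name C57BL/6NJ gene models, so promoter sequences, on GRCm38.p6, were matched by symbol. Count columns read untreated where the labels say PBS; they were taken as PBS by elimination and number, an inference. Unnamed loci held 1.17% to 2.14% of counts. In R 4.3.3, edgeR 4.0.16 kept 16596 of 44806 entries with filterByExpr, scaled by TMM and ran the robust quasi-likelihood F test over all 9 libraries, with calls at a Benjamini-Hochberg adjusted p under 0.05 over all genes tested. Standard errors come from the fold change and F. CPM use effective totals. Intervals cover 95%. Replicates all differed by more than sampling noise. The procedure was run on simulated counts with the same dispersion for every gene. The spread in these data differs by gene, so the run does not show how the tests perform here. The 16 alternatives were DESeq2 1.42.0, other scalings and filters, the 2 groups alone, a replicate block and each library left out; those for genes outside the set were added after their values were seen. Members and lists were chosen with earlier results of these data known. Members, Trp53, Mdm4, Cdkn2a and Ppm1d are named whatever their result, with up to 4 called genes of each list per comparison by smallest p. Eda2r, Asns, Col3a1 and Postn were chosen after their values were seen.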

Additional observations from a re-analysis of the deposited data

How the results depend on the processing

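Direction and call held in all 16 alternatives for Pmaip1 against PBS in both treatments, Cdkn1a and Sesn2 in Lipo-BiTE against PBS, and Trp53inp1 in Lipo-TriTE against PBS. Cdkn1a came close to the cutoff, at an adjusted p up to 0.0499. Calls were kept in 8 of 16 for Mdm2 in Lipo-BiTE against PBS and for the falls of Cdkn1a and Sesn2 in Lipo-TriTE against Lipo-BiTE, and in 4 of 16 for that of Phlda3. Fitting only these 2 groups, or adding a replicate block, left 0 members called lower between the treatments. Same-numbered libraries deviated from their group means with r between −0.19 and 0.08, and 0 of 9 libraries correlated best with their own number in both other groups. Between Lipo-BiTE and Lipo-TriTE, however, every library correlated best with its own number. There r was 0.041, 0.076 and 0.033 for numbers 1, 2 and 3, against −0.070 to 0.019 for the other pairs. Deviations from means of 3 libraries cannot exclude a shared day or batch, and the labels do not say what the numbers mark. With the block, Mdm2 (adjusted p = 0.084) and Mcm5 (0.082) in Lipo-BiTE against PBS and Mdm4 in Lipo-TriTE against PBS (0.052) were not called, Trp53inp1 in Lipo-BiTE against PBS was (0.047, edgeR), and 282 of all genes were lower in Lipo-BiTE against PBS, against 534. Scaling by total counts shifted the median gene by −0.13 (log2) in Lipo-BiTE against PBS and by 0.12 in Lipo-TriTE against Lipo-BiTE. It moved the calls over all genes there from 2283 higher and 534 lower to 2079 and 988, and from 810 and 865 to 1099 and 451. DESeq2, run on every gene with at least 1 count, called 1572 higher and 1075 lower in the latter. Of these, 1318 and 1062 were among the 16596 genes tested by edgeR. Without a filter 839 were lower in Lipo-BiTE against PBS, and 1538 higher and 1455 lower in Lipo-TriTE against Lipo-BiTE, where the fit of 2 groups gave 510 lower. The cause was not tested. Leaving out 1 library gave, for members, 3 to 5 higher in Lipo-BiTE against PBS, 2 to 3 higher and 1 to 2 lower in Lipo-TriTE against PBS, and 0 to 1 higher and 0 to 4 lower between the treatments. Over all genes it gave 1455 to 2656 higher and 80 to 971 lower, 1391 to 2644 lower in Lipo-TriTE against PBS, and 276 to 1077 higher and 158 to 1120 lower between the treatments. Uncalled log2 fold changes near 0 changed sign. Ccng1 ran from −0.31 to 0.15, −0.31 to 0.11 and −0.10 to 0.041 in the 3 comparisons, Bbc3 from −0.30 to 0.28 in Lipo-TriTE against PBS, Phlda3 from −0.22 to 0.079 in Lipo-BiTE against PBS and Bax from −0.15 to 0.040 between the treatments. There, Ccng1 was 0.11 and Bax 0.065 by total counts, and Ccng1 was 0.014 with DESeq2, 0.018 with its size factors, 0.025 with the stricter filter and 0.019 in the fit of 2 groups.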

Other observations

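The paralogue of Sesn2 followed another order. Sesn1, which encodes sestrin 1, was at 19.7, 17.5 and 14.9 CPM in PBS, 22.3, 15.6 and 18.6 in Lipo-BiTE and 54.7, 35.0 and 43.8 in Lipo-TriTE, so that only the Lipo-TriTE libraries stood apart. It was 2.57-fold higher in Lipo-TriTE than in PBS (edgeR quasi-likelihood adjusted p = 0.00091) and 2.36-fold higher than in Lipo-BiTE (adjusted p = 0.0075), where Sesn2 was lower. Lipo-BiTE against PBS did not pass for Sesn1 (log2 0.12, adjusted p = 0.73), where Sesn2 was higher. Sesn1 was named in Lipo-TriTE against PBS after its values were seen.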
